A study of Mus musculus with 4 samples.

Results

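S100 genes encode small proteins, most of which bind calcium. Here 8 of these genes were followed in mouse bone marrow progenitors with and without Hif1a: S100a1, S100a4, S100a6, S100a8, S100a9, S100a10, S100a11 and S100a13. They were chosen by name, and each matched 1 of the 28987 gene rows of an RNA sequencing table. Most S100 proteins carry EF-hand calcium-binding loops, work as dimers, and change shape on binding calcium so that they can grip partner proteins. S100A8 and S100A9 pair to form calprotectin, which fills the cytosol of neutrophils and monocytes. Released from cells, the pair acts as an alarmin, a danger signal read through the receptors TLR4 and RAGE, and in human myelodysplasia S100A9 has been linked to inflammasome activation in marrow cells.

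The 4 libraries came from c-Kit-positive bone marrow cells of C57BL/6 mice. The Hif1a-null group (n = 2) had the labelled genotype MllPTD/WT with Runx1Flox/Flox, Hif-1αFlox/Flox and Mx1-Cre. The Hif1a-intact group (n = 2) had MllPTD/WT with Runx1Flox/Flox and Mx1-Cre, and no floxed Hif1a. Both groups thus carry the partial tandem duplication of Mll and the floxed Runx1, and no library lacks them. Mx1-Cre is a recombinase under an interferon-inducible promoter, which is active in blood cells and in other tissues. The labels give no age, and nothing in them ties a library to its own mouse. The p-values therefore reflect the spread among these 4 samples alone, and that spread may be technical.

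Values are TPM, the length-scaled share of a library's transcripts, so levels of different genes can be compared but the depth behind them is unknown. Hif1a itself read 98.8 and 113 TPM in Hif1a-null libraries and 100.3 and 75.2 TPM in the Hif1a-intact libraries. A gene-level TPM includes exons outside a floxed part, so this does not check the deletion, and directions rest on the labels. Kit, the marker the cells were isolated by, was present at 121 and 102 TPM in Hif1a-null and 128 and 126 TPM in Hif1a-intact, far below the neutrophil gene Chil3. Chil3 alone took 6.70% and 6.47% of the Hif1a-null libraries and 3.13% and 2.86% of the Hif1a-intact libraries. The Hif1a-intact pair was also more spread out: over all tested genes the median SD of log2(TPM + 1) was 0.085 in the Hif1a-null pair and 0.18 in the Hif1a-intact pair.

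All 8 genes lie on mouse chromosome 3 (GENCODE vM21, GRCm38). The first block holds 6 of them within 184.7 kb (90511034 to 90695721), and S100a11 and S100a10 form a second block 2.82 Mb further on (93520488 to 93564643). S100a8 (ENSMUSG00000056054, 90668978 to 90670035, plus strand) and S100a9 (ENSMUSG00000056071, 90692632 to 90695721, minus strand) are neighbours that point at each other across 22596 bases. RefSeq promoter windows (GRCm38.p6, 250 bases before to 50 after the annotated start) were matched for 7 of the 8; S100a10 was not matched. The windows of the alarmin pair are shown because that pair holds nearly all S100 transcript here. Capitals mark the letters TTNCNNAA on either strand, a loose form of the site of C/EBP factors, which drive myeloid genes.
S100a8 (chr3:90668821-90669120, plus strand): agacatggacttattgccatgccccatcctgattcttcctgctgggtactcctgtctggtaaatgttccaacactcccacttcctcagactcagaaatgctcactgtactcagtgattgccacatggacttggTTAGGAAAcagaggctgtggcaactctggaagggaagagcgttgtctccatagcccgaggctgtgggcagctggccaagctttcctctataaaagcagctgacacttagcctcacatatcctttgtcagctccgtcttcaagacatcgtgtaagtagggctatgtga
S100a9 (chr3:90695672-90695971, minus strand): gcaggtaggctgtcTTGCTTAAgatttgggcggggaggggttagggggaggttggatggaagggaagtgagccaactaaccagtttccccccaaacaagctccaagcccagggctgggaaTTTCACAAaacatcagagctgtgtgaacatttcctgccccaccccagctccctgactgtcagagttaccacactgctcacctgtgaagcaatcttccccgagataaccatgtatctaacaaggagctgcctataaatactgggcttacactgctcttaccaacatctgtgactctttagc

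The C/EBP letters occurred once in the S100a8 window (117 to 110 bases before the start) and at 2 places in the S100a9 window (236 to 229 and 130 to 123 bases before it), and in none of the other 5 windows. They occur in 40.68% of all 32851 RefSeq windows of this length. The TATA box letters TATAAA, read on the sense strand only, lay 30 to 25 bases before the start of S100a8 and 31 to 26 bases before that of S100a4, and in S100a9 they covered the first 6 bases after the annotated start; 8.32% of all windows hold them. The core letters bound by HIF factors, ACGTG or GCGTG on either strand, were found in the windows of S100a6, S100a11 and S100a13 and not in those of S100a8, S100a9, S100a1 and S100a4, against 43.77% of all windows. In S100a6 and S100a11 the ACGTG match reads on both strands at overlapping positions, as the palindrome cacgtg. The letters GAGGAA, part of the site of the myeloid factor PU.1, were in the windows of S100a8, S100a4 and S100a11 and in 28.28% of all windows. Such matches describe letters, not binding.

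Levels of the 8 genes ran from the most abundant transcripts of the cells down to nearly none. S100a8 had the highest mean over the 4 libraries (9311 TPM, rank 11 of all genes) and S100a9 followed (6256 TPM, rank 16), with ranges that overlap. S100a11 (126 TPM) and S100a6 (90.6 TPM) came next, and their ranges over the 4 libraries did not overlap. The ranges of S100a6, S100a1 (40.1 TPM) and S100a10 (25.8 TPM) overlapped from each to the next. S100a4 averaged 7.30 TPM, below all values of S100a10, and S100a13 read between 0.0154 and 0.0273 TPM, which is near 0 in every library.

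**Figure D1:**
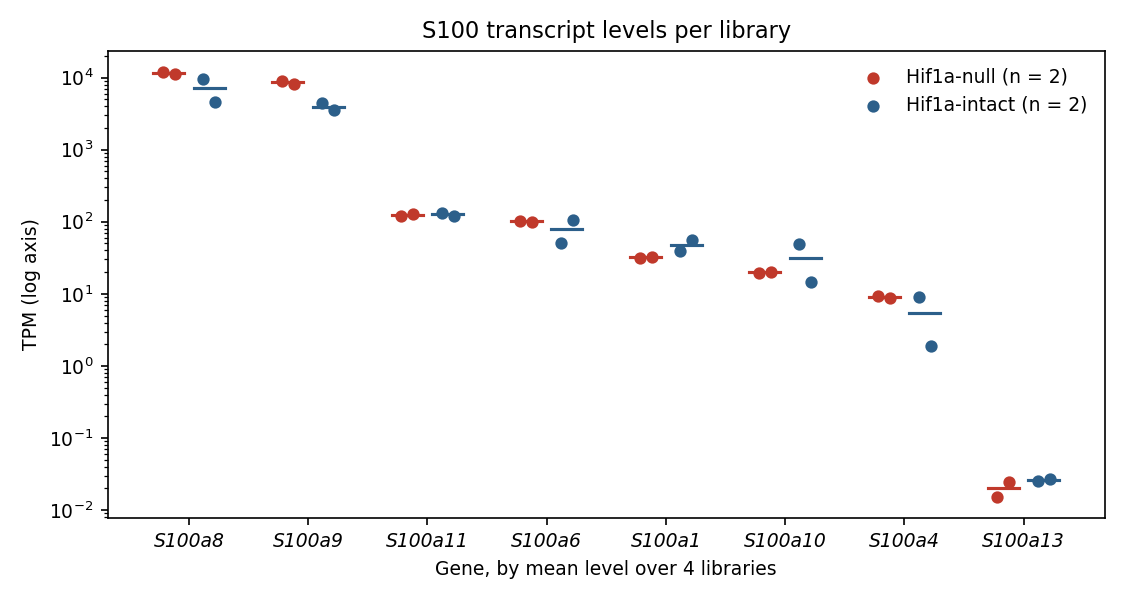
TPM on a log axis for each S100 gene, ordered by mean level; points are the 2 libraries of each group and short lines their means. S100a8 and S100a9 lie far above the rest, S100a13 lies near 0.02 TPM, and the Hif1a-intact points of S100a4, S100a6, S100a8 and S100a10 are further apart than the Hif1a-null points.

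Of the 7 tested members, 1 rose in Hif1a-null (S100a9) and 0 fell, where 5.25% of the 11909 genes tested rose, 2.02% fell and 7.27% were called in either direction. The groups did not overlap for 3 of the 7, against 55.0% of all genes tested: S100a9 and S100a8 were higher in Hif1a-null (22.7% of all genes) and S100a1 was lower (32.3% of all genes). Both shares over all genes are large, so a lack of overlap says little of a single member.

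S100a9, which encodes the larger chain of calprotectin, stood at 8851 and 8254 TPM in Hif1a-null, against 4411 and 3510 TPM in Hif1a-intact. Both Hif1a-null libraries were above both Hif1a-intact libraries. The means were 8552 ± 422 TPM and 3961 ± 637 TPM (Hif1a-null and Hif1a-intact, SD, n = 2 each), 2.16 times as high in Hif1a-null. On the log2(TPM + 1) scale the fold change was 1.12 (standard error 0.17), with a 95% interval of 0.66 to 1.58 (limma, adjusted p = 0.0387 over all 11909 genes tested). That call sat close to the threshold of 0.05. Over 15 alternative settings the log2 fold change ran from 0.95 to 1.28. Changes of the variance model or the filter cannot move this value. With groups that do not overlap, leaving out 1 library cannot turn its sign either. The call was lost in 7 of the 15 settings. Among the 7 were the fits without Hif1a-null replicate 1, Hif1a-null replicate 2 and Hif1a-intact replicate 2 (limma, adjusted p = 0.384, 0.382 and 0.0549).

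S100a8, which encodes the other chain of calprotectin, did not pass. Its libraries read 11933 and 11027 TPM in Hif1a-null, against 9656 and 4627 TPM in Hif1a-intact. The groups did not overlap, but the Hif1a-intact libraries differed from each other by a factor of 2.09 and the Hif1a-null libraries by 1.08. The difference was 0.78 on the log2 scale (standard error 0.39), with a 95% interval of -0.28 to 1.83 (limma, adjusted p = 0.330), an interval that holds both no difference and the value of S100a9. Without Hif1a-intact replicate 1 the value was 1.31, and without Hif1a-intact replicate 2 it was 0.25. In those fits the spread came from the Hif1a-null pair alone, so they do not reflect the spread of the Hif1a-intact pair. Whether the changes of S100a8 and S100a9 differ was not tested.

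The ratio of the pair set 1 library apart. S100a8 over S100a9 was 1.35 and 1.34 in the Hif1a-null libraries, and 2.19 and 1.32 in the Hif1a-intact libraries. Of the 4 libraries, 3 from both groups thus had nearly the same ratio, and Hif1a-intact replicate 1 stood above them. Together the pair made up 2.16% and 2.002% of all TPM in Hif1a-null and 1.46% and 0.851% in Hif1a-intact. Of the TPM of all 8 genes, the pair held 98.6% and 98.5% in Hif1a-null and 98.0% and 96.5% in Hif1a-intact. The other 6 genes summed to 285 and 292 TPM against 283 and 299 TPM, so the higher sum in Hif1a-null lay in the alarmin pair. With 2 libraries a group an exact permutation test of such a sum or ratio cannot go below a two-sided p of 0.333, and none was run.

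**Figure D2:**
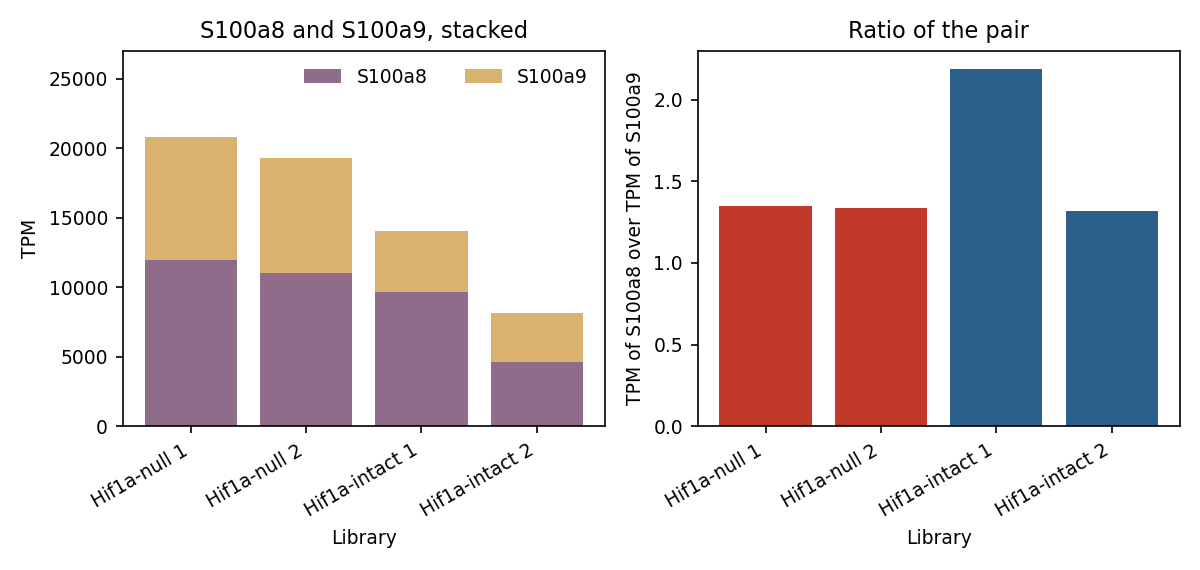
Left, TPM of S100a8 and S100a9 stacked per library; right, the TPM of S100a8 divided by that of S100a9 per library. The stacked sum is 20784 and 19281 TPM in Hif1a-null and 14067 and 8136 TPM in Hif1a-intact, and the ratio is 2.19 in Hif1a-intact replicate 1 and between 1.32 and 1.35 in the other libraries.

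Of 20 granulocyte markers tested, 9 rose, 0 fell and 11 did not pass, where 5.25% of all genes tested rose. They had a median log2 fold change of 0.48 against -0.06 over all genes. Among those that did not pass, Mpo (1926 and 1950 TPM in Hif1a-null against 2859 and 2326 TPM in Hif1a-intact) and Gfi1 (52.4 and 47.6 against 72.3 and 74.02 TPM) had lower values in Hif1a-null (limma, adjusted p = 0.232 and 0.105). The summed level of all 20 markers was 89341 and 87868 TPM in Hif1a-null and 51647 and 50656 TPM in Hif1a-intact. Most of it was Chil3, which rose (64447 and 62291 against 30122 and 27349 TPM, limma, adjusted p = 0.0216). Ngp, a granule protein of neutrophil precursors, rose (3644 and 3587 against 2167 and 2149 TPM; limma, adjusted p = 0.0449). Lcn2, which encodes an iron-scavenging granule protein (2894 and 3222 against 1988 and 1804 TPM), and Camp, which encodes the antimicrobial cathelicidin (8951 and 9296 against 8917 and 11693 TPM), did not pass (limma, adjusted p = 0.0737 and 0.662). In bulk RNA, more cells of a type and more transcript per cell cannot be told apart, and the part of neutrophil content in the S100 values was not tested.

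The alarmins were also set against those markers, whose mean log2(TPM + 1) was itself higher in Hif1a-null (8.79 and 8.80) than in Hif1a-intact (8.02 and 7.89), so that a gene of equal level in both groups comes out lower in Hif1a-null on this measure. The log2(TPM + 1) of S100a9 minus the mean over the 20 granulocyte markers was 4.32 and 4.21 in Hif1a-null and 4.09 and 3.89 in Hif1a-intact, a mean difference of 0.28. For S100a8 this was 4.75 and 4.63 against 5.22 and 4.29, groups that overlap, with a mean difference of -0.06. The other members came out at mean differences of 0.06 (S100a4), -0.39 (S100a6), -0.86 (S100a11), -0.85 (S100a13), -1.26 (S100a10) and -1.37 (S100a1). S100a11 has its difference on this measure although its TPM was near-flat. For S100a13, near 0 TPM in every library, the value holds only the shift of the marker mean. The log2 fold changes of the 20 markers themselves ran from -0.54 to 2.95, with a median of 0.48. The differences on this measure therefore depend on the markers listed and on the use of their mean. These values are descriptions, and the markers were picked with results of these libraries known. Monocyte, macrophage and dendritic cell markers, the other likely source of S100a8 and S100a9, summed to 655 and 667 TPM in Hif1a-null and 781 and 746 TPM in Hif1a-intact; of 14 tested, 3 rose and 2 fell, and none of the 16 listed was at 0 in all libraries. Over all genes tested, 5.25% rose and 2.02% fell. For 3 of the 14 markers, Itgax among the risers, the Hif1a-intact libraries lay below 1 TPM, so the filter fixed the direction.

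Over the 2082 named genes with a mean of at least 50 TPM, those whose log2(TPM + 1), centred per gene, lay nearest to S100a9 over the 4 libraries were Cd74 (Euclidean distance 0.12), Hmgb3 (0.14), Chil3 (0.14), Ltf (0.21) and Lyz2 (0.26). Cd74 encodes the invariant chain of MHC class II, Ltf the granule protein lactoferrin and Lyz2 lysozyme. Cd74 read 91.9 and 87.8 TPM in Hif1a-null and 43.7 and 38.8 TPM in Hif1a-intact. Nearest to S100a8 were Tma7 (0.13), Hspe1 (0.20), Prdx4 (0.20), Tfrc (0.34) and Cd52 (0.34), none of which is on the S100a9 list. Hspe1 encodes a mitochondrial co-chaperonin, Prdx4 a peroxiredoxin and Tfrc the transferrin receptor. Tma7 read 94.98 and 82.0 TPM in Hif1a-null and 70.2 and 37.0 TPM in Hif1a-intact, low in Hif1a-intact replicate 2 as S100a8 was.

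Among the members that bind annexins, none passed. S100a10 (ENSMUSG00000041959, 93555080 to 93564643, plus strand), which joins annexin A2 in a tetramer at the membrane, read 19.2 and 20.4 TPM in Hif1a-null and 49.1 and 14.4 TPM in Hif1a-intact. The Hif1a-null values lay between the Hif1a-intact values, and its log2 fold change was -0.42 with a 95% interval of -2.05 to 1.22 (limma, adjusted p = 0.739). Leaving out either Hif1a-intact library decided its direction: 0.43 without replicate 1 and -1.27 without replicate 2. Anxa2, its partner, read 287 and 261 TPM in Hif1a-null and 302 and 345 TPM in Hif1a-intact (limma, adjusted p = 0.426). The TPM of Anxa2 over that of S100a10 was 15.0 and 12.8 in Hif1a-null and 6.15 and 24.02 in Hif1a-intact. Its nearest genes were Rpl10 (distance 0.20), Alox5ap (0.40), Rpl21 (0.40), Rpl34 (0.41) and Rps3 (0.42), 4 of which encode ribosomal proteins. Rpl10 read 235 and 208 TPM against 549 and 176 TPM, with the same high Hif1a-intact replicate 1.

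S100a11 (ENSMUSG00000027907, 93520488 to 93526287, plus strand), a partner of annexin A1, was the steadiest member. It read 120 and 130 TPM in Hif1a-null and 134 and 119 TPM in Hif1a-intact, a log2 fold change of -0.02 with a 95% interval of -0.40 to 0.36 (limma, adjusted p = 0.960). In folds, that interval runs from 0.76 to 1.28 times the Hif1a-intact level. This gene shares reads, however. The processed pseudogene Gm12854 (chromosome 4, 116067268 to 116067564, plus strand) matches it at 98.99% identity over 297 bases and read 465 and 506 TPM in Hif1a-null and 432 and 353 TPM in Hif1a-intact. S100a11 thus held 20.5% and 20.4% of the joint TPM with its copies in Hif1a-null, and 23.7% and 25.15% in Hif1a-intact.

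**Figure D3:**
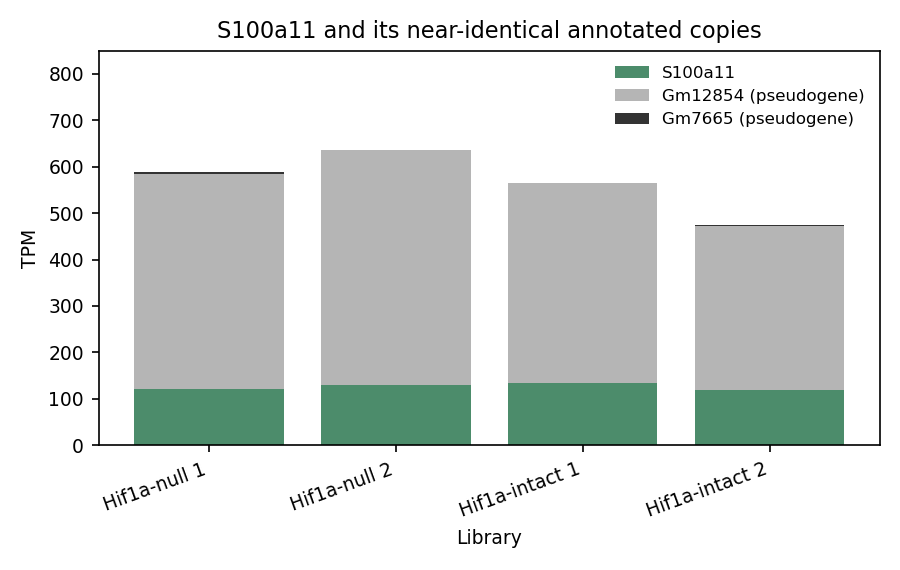
TPM per library of S100a11 and of its near-identical annotated copies Gm12854 and Gm7665, stacked. The pseudogene Gm12854 carries most of each bar, and the full bars reach 588 and 636 TPM in Hif1a-null and 566 and 475 TPM in Hif1a-intact.

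Summed with its copies, S100a11 read 612 ± 34.2 TPM in Hif1a-null and 520 ± 64.1 TPM in Hif1a-intact (SD, n = 2 each). The log2 fold change then had the other sign, 0.24, and did not pass (limma, adjusted p = 0.446). The level of S100a11 is therefore uncertain, with the listed TPM at its low end, and the groups did not differ past the threshold in either form. Among genes with a row of values, no other member had a copy at 95% identity or more. Annotated genes without a row, such as Gm42674, which shares exon bases with S100a4, were not counted. Anxa1, the partner of S100a11, read 1033 and 826 TPM in Hif1a-null and 587 and 791 TPM in Hif1a-intact (limma, adjusted p = 0.335).

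S100a6 (ENSMUSG00000001025, 90612882 to 90624181, plus strand), or calcyclin, binds annexins and the ubiquitin ligase adaptor Cacybp. It read 104 and 99.9 TPM in Hif1a-null and 51.4 and 107 TPM in Hif1a-intact. Only Hif1a-intact replicate 1 was low; the other Hif1a-intact library was above both Hif1a-null libraries. Its log2 fold change was 0.45 with a 95% interval of -0.58 to 1.48 (limma, adjusted p = 0.554), and it was -0.07 without Hif1a-intact replicate 1 and 0.97 without replicate 2. Rb1 (distance 0.11), the retinoblastoma gene, and Lsp1 (0.13), a leukocyte actin-binding gene, had the nearest patterns, followed by Rexo2 (0.16), Qdpr (0.18) and Pram1 (0.19).

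S100a4 (ENSMUSG00000001020, 90603771 to 90606045, plus strand) encodes a binding protein of non-muscle myosin that promotes cell movement. It read 9.32 and 8.89 TPM in Hif1a-null and 9.14 and 1.87 TPM in Hif1a-intact. Hif1a-intact replicate 1 was level with the Hif1a-null libraries, and replicate 2 was lower by a factor of 4.89. The log2 fold change of 0.90 had a 95% interval of -0.84 to 2.65 (limma, adjusted p = 0.481). It was 1.82 without Hif1a-intact replicate 1 and -0.0059 without replicate 2. Of its 584 annotated exon bases, 302 are shared with Gm42674 on the same strand, which was not analysed here. The nearest patterns to S100a4 were further off than for S100a8 or S100a9: Urod (distance 0.43), S100a8 itself (0.55), Uqcr11 (0.59), Prdx4 (0.63) and Tma7 (0.67).

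**Figure D4:**
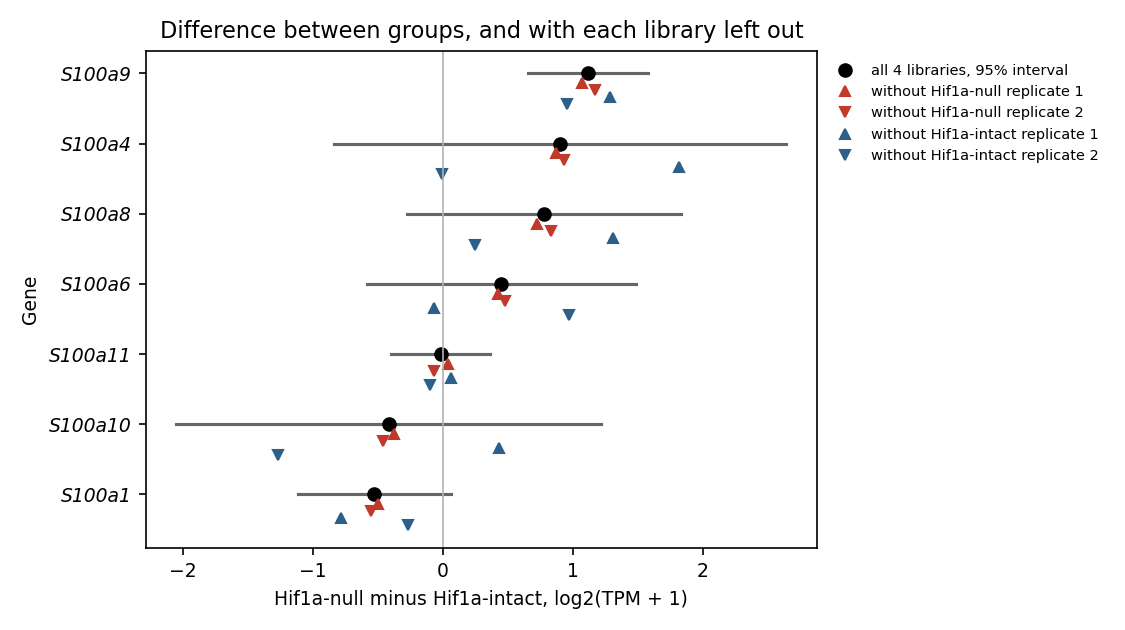
Difference between Hif1a-null and Hif1a-intact on the log2(TPM + 1) scale for the 7 tested S100 genes; black points and bars are the limma estimate from 4 libraries and its 95% interval, triangles the estimate with 1 library left out. The interval of S100a9 alone (0.66 to 1.58) lies clear of 0. The blue triangles of S100a4, S100a6, S100a10 and S100a11 fall on both sides of 0.

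S100a1 and S100a13 start back to back. S100a1 (ENSMUSG00000044080, 90511034 to 90514392, minus strand), known as a calcium-handling protein of heart muscle, read 31.8 and 32.9 TPM in Hif1a-null and 39.1 and 56.6 TPM in Hif1a-intact. Both Hif1a-null libraries were below both Hif1a-intact libraries, and the log2 fold change of -0.53 had a 95% interval of -1.12 to 0.06 (limma, adjusted p = 0.255). Over the 15 alternative settings it ran from -0.79 to -0.27 and passed in none. Changes of the variance model or the filter cannot move this value. With groups that do not overlap, leaving out 1 library cannot turn its sign either. Nearest to it were Nup54 (distance 0.04), Nfu1 (0.07), Srebf1 (0.09), Frg1 (0.09) and Prss57 (0.09).

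S100a13 (ENSMUSG00000042312, 90514435 to 90524581, plus strand), which helps to export signal-less growth factors such as FGF1, read 0.0154 and 0.0249 TPM in Hif1a-null and 0.0252 and 0.0273 TPM in Hif1a-intact. It did not reach the minimum of 1 TPM in 2 libraries and was not tested. Its RefSeq start lies 105 bases from that of S100a1, so their promoter windows share 204 bases, yet S100a1 read at least 1320 times the TPM of S100a13 in each library. The S100a1 window is shown because of this contrast, with the bases shared with the S100a13 window in capitals.
S100a1 (chr3:90514281-90514580, minus strand): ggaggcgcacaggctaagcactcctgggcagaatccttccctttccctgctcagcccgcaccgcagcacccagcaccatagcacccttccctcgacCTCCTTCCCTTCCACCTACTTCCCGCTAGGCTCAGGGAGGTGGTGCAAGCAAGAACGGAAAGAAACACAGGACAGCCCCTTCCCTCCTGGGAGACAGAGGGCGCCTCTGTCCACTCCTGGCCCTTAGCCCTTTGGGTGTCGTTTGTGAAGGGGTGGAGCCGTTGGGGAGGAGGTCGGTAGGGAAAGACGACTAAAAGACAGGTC

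At an unadjusted limma p under 0.05 the count of members was also 1 of 7, against 23.2% of all genes. The median log2 fold change was 0.45 over the 7 members, 4 of which lay above 0, and -0.06 over all genes. Several members varied more within groups than most genes did. Their median within-group SD of log2(TPM + 1) was 0.52, against 0.16 over the 7072 tested genes with a mean of at least 10 TPM. S100a4, S100a10, S100a8 and S100a6 had a larger spread than 98.4%, 98.2%, 94.7% and 94.3% of those genes. S100a4 itself, with a mean of 7.30 TPM, lies below the minimum of that set. The spread came from the Hif1a-intact pair: for S100a8 the SD was 0.081 in Hif1a-null and 0.75 in Hif1a-intact, and for S100a10 it was 0.057 and 1.21.

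S100 transcripts are short, with a longest annotated form of 498 bases (S100a4 and S100a8) to 783 bases (S100a6). Over the 588 tested genes with a mean of at least 10 TPM and a longest transcript of up to 1000 bases, the median SD was 0.14 in the Hif1a-null pair and 0.37 in the Hif1a-intact pair, and over the 6389 longer genes it was 0.068 and 0.17. The part of transcript length in the spread of the S100 genes was not tested.

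**Figure D5:**
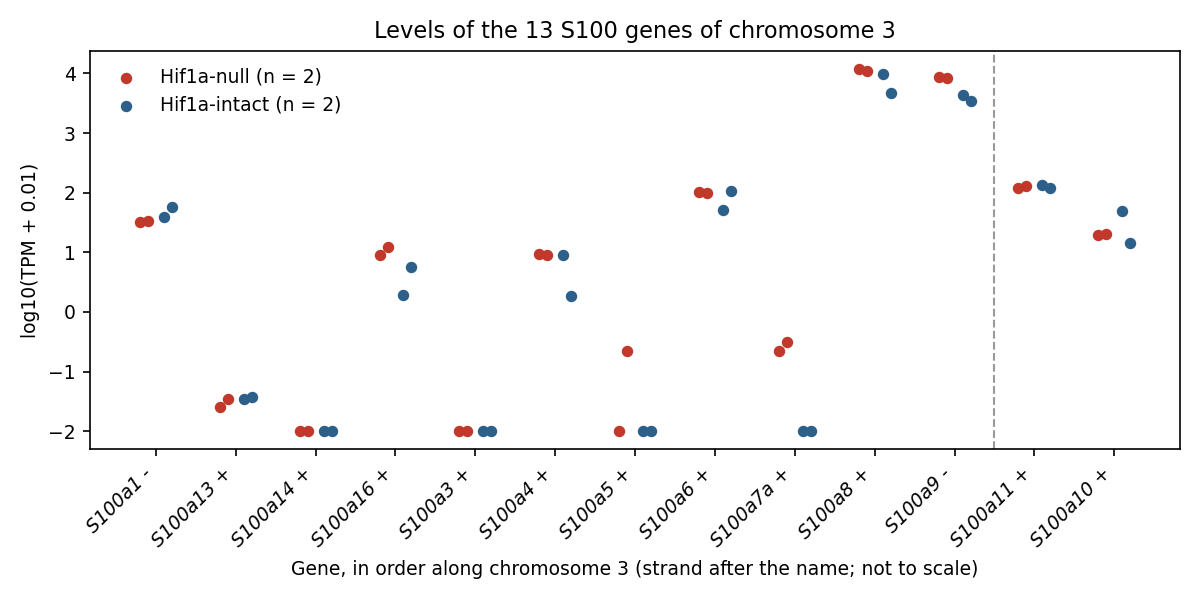
Level of the 13 S100 genes of chromosome 3 in the table as log10(TPM + 0.01), in chromosomal order with the strand after each name and a dashed line where 2.82 Mb separate the blocks; points are libraries. High and near-silent genes are interspersed, with S100a8 and S100a9 highest. All values of S100a3 and S100a14, most values of S100a5 and the Hif1a-intact values of S100a7a lie at the floor.

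S100 genes outside the 8, on chromosome 3 and elsewhere, were mostly listed at 0 or near it. Of the 10 looked for, 8 had a row, and only S100a16 was tested. It read 9.01 and 12.3 TPM in Hif1a-null and 1.89 and 5.63 TPM in Hif1a-intact, groups that do not overlap, and did not pass (log2 fold change 1.40; limma, adjusted p = 0.177). S100a3, S100a14 and S100z were listed at 0 in all 4 libraries. S100a7a had 0.214 and 0.308 TPM in Hif1a-null and was listed at 0 in Hif1a-intact.

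Receptors that read extracellular S100 proteins were examined next. Of 13 tested genes for receptors and their signalling, 1 rose and 0 fell, where 5.25% of all genes tested rose and 2.02% fell. Their median log2 fold change was 0.05. The riser was Cd33, a sialic acid receptor gene whose human product has been reported to bind S100A9. It read 25.2 and 26.8 TPM in Hif1a-null and 5.03 and 4.69 TPM in Hif1a-intact (log2 fold change 2.20, limma, adjusted p = 0.00655). Tlr4, the main alarmin receptor, read 25.5 and 22.6 TPM against 25.0 and 17.5 TPM (limma, adjusted p = 0.662). Ager, which encodes RAGE, was low at 1.74 and 0.972 TPM against 1.17 and 1.17 TPM (limma, adjusted p = 0.822). Bsg, another reported S100A9 receptor, read 2.45 and 1.35 TPM against 4.94 and 0.599 TPM (limma, adjusted p = 0.947).

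Co-receptor and adaptor genes did not pass, in either direction. Cd14, the co-receptor of TLR4, read 14.5 and 15.5 TPM in Hif1a-null and 23.1 and 23.2 TPM in Hif1a-intact (limma, adjusted p = 0.0806). Irak1, a kinase below the receptor, read 138 and 141 TPM against 172 and 195 TPM (limma, adjusted p = 0.198). Ticam1, another adaptor, read 4.86 and 4.40 TPM against 4.31 and 4.28 TPM, and Ly96, which joins TLR4, 4.08 and 4.80 TPM against 6.20 and 2.82 TPM (limma, adjusted p = 0.746 and 0.953); both were chosen after their values were seen. For Myd88, the first adaptor, the values were 14.8 and 12.7 TPM against 19.5 and 17.2 TPM (limma, adjusted p = 0.235). Irak4 read 33.4 and 32.9 TPM against 34.8 and 54.6 TPM (limma, adjusted p = 0.448) and held only 11.4% to 19.9% of its joint TPM with a near-identical copy.

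Among 10 tested intracellular partners of S100 proteins, 0 rose and 0 fell, where 5.25% of all genes tested rose and 2.02% fell. Their median log2 fold change was -0.17. At an unadjusted limma p under 0.05 there were 2, Ahnak and Anxa11, against 23.2% of all genes tested. Ahnak, a scaffold that the S100A10 and annexin A2 complex binds, read 2.40 and 2.50 TPM in Hif1a-null and 4.05 and 4.18 TPM in Hif1a-intact (limma, adjusted p = 0.0843). Anxa11 read 24.3 and 23.7 TPM against 31.6 and 34.9 TPM (limma, adjusted p = 0.146). Anxa5 (54.6 and 52.9 against 70.3 and 58.8 TPM) did not pass either (limma, adjusted p = 0.406).

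Inflammasome genes, which lie downstream of alarmin signalling in myelodysplasia, gave 0 calls among 6 tested, where 5.25% of all genes tested rose and 2.02% fell. Their median log2 fold change was -0.14, and 3 had an unadjusted limma p under 0.05, against 23.2% of all genes tested. Pycard, the adaptor ASC, read 34.0 and 29.9 TPM in Hif1a-null and 62.2 and 50.6 TPM in Hif1a-intact (limma, adjusted p = 0.0805). Nlrp3, the sensor, was near the floor at 1.83 and 1.56 TPM against 0.687 and 0.471 TPM (limma, adjusted p = 0.0634), and it was tested only because both Hif1a-null libraries exceeded 1 TPM. Il1r1, which encodes the interleukin-1 receptor, read 1.43 and 1.64 TPM against 2.95 and 2.49 TPM (limma, adjusted p = 0.119). Il18r1 read 1.07 and 1.65 TPM against 1.05 and 0.786 TPM (limma, adjusted p = 0.439).

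Of 12 factors reported to act at S100a8 and S100a9, 1 fell and 0 rose, where 2.02% of all genes tested fell and 5.25% rose. Their median log2 fold change was -0.24. Cebpa, which commits progenitors to the myeloid line, fell to 12.99 and 13.6 TPM in Hif1a-null, against 28.6 and 33.8 TPM in Hif1a-intact (log2 fold change -1.17; limma, adjusted p = 0.0260). Its direction is thus opposite to that of S100a9. The part of these factors in the S100 values was not tested. Cebpb read 10.4 and 9.50 TPM against 13.3 and 17.7 TPM (limma, adjusted p = 0.173), and Cebpe, the factor of late granulocyte maturation, 48.5 and 50.75 TPM against 59.4 and 72.5 TPM (limma, adjusted p = 0.239). Spi1, which encodes PU.1, read 130 and 147 TPM against 137 and 156 TPM (limma, adjusted p = 0.810). Myb, a progenitor factor, read 186 and 188 TPM against 253 and 317 TPM (limma, adjusted p = 0.136), and Stat3 189 and 207 TPM against 261 and 290 TPM (limma, adjusted p = 0.151).

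Irf7, an interferon-response factor, read 14.8 and 17.1 TPM in Hif1a-null and 9.44 and 3.27 TPM in Hif1a-intact (limma, adjusted p = 0.198). For Runx1, floxed in both groups, the difference was -0.65 on the log2 scale and missed the threshold (limma, adjusted p = 0.0636); its part in the S100 values was not tested.

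Of 14 known HIF-1 targets outside glycolysis that were tested, 5 fell, 0 rose and 9 did not pass. Over all genes tested, 2.02% fell and 5.25% rose. The median log2 fold change of the 14 was -0.45. Egln3 and Egln1, which encode oxygen-sensing prolyl hydroxylases, had log2 fold changes of -1.97 and -1.27 (limma, adjusted p = 0.00717 and 0.0208). Ndrg1, a stress-response gene, Ak4, a mitochondrial adenylate kinase, and Ddit4, an inhibitor of mTOR signalling, had -1.54, -2.13 and -1.22 (limma, adjusted p = 0.0147, 0.0294 and 0.0342). Car9, a carbonic anhydrase gene, read 4.42 and 4.63 TPM in Hif1a-null and 7.26 and 6.41 TPM in Hif1a-intact (limma, adjusted p = 0.128). Bnip3 (16.7 and 17.5 against 22.0 and 25.3 TPM), Higd1a (3.23 and 2.80 against 4.42 and 3.71 TPM) and Slc2a1 (13.2 and 13.7 against 15.7 and 22.7 TPM) did not pass (limma, adjusted p = 0.170, 0.287 and 0.295), and Higd1a held only 29.3% to 39.1% of its joint TPM with such a copy. Vegfa and Kdm3a had log2 fold changes of 0.12 and 0.14, and Bnip3l and Mxi1 of -0.03 and -0.01, and their groups overlapped (limma, adjusted p = 0.795, 0.753, 0.940 and 0.978). Mxi1 held only 3.23% to 3.98% of its joint TPM with a near-identical copy. Vegfa, Kdm3a, Bnip3l and Mxi1, like Mpo and Gfi1 above, were chosen after their values were seen. No S100 member passed as lower.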

How the data were processed

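RNA came from c-Kit-positive bone marrow cells isolated on CD117 microbeads, per the labels' protocols. The authors deposited TPM per Ensembl gene for 4 libraries, with kallisto and mm10 named per the submitters' processing notes. For the kallisto version, transcripts and strandedness, nothing was given in the sources used here. TPM keeps no depth, so no counting intervals are given. Symbols for 27458 of 28987 rows and all gene coordinates came from GENCODE vM21 (GRCm38); promoters came from RefSeq (GRCm38.p6).

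Groups follow the titles, 2 libraries each; replicate numbers only name libraries. limma 3.58.1 in R 4.3.3 (two-sided, trend and robust off) was fitted to log2(TPM + 1) of the 11909 genes that reached 1 TPM in 2 or more libraries. Benjamini-Hochberg adjustment ran over all of them, with a threshold of 0.05. A fold change on this scale understates changes of low genes. Copies were searched with blastn 2.17.0 (at least 95% identity over 50% of the shorter transcript and 100 bases). Only copies with a row of values were kept. Figures used matplotlib 3.10.9 in Python 3.11.15. Members, lists and the naming rule were chosen with earlier results of these data known. Named were all members, list genes called, up to 4 more per list by smallest unadjusted p, set partners, receptors and factors, the 4 granulocyte markers of highest mean, and for each member up to 5 genes of nearest pattern; those of S100a11 and S100a13, whose values are flat, are left out. Gene lists of erythroid, megakaryocyte, B, T and NK, mast cell, stromal and stem cell markers were summarised only as the values given with the other observations. Settings tried were variance models, rescalings, pseudocounts, filters, leaving out abundant genes or single libraries, protein-coding genes only, and copies summed.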

Additional observations from a re-analysis of the deposited data

How the results depend on the processing

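No paired analysis was possible because the labels give no replicate numbers shared between groups. With 1 library of 4 left out, the lone library of its group is assumed to vary like the other group. Genes called higher numbered 625 with all libraries, 310 with a pseudocount of 10, 332 with a minimum of 5 TPM, and 0 to 731 with 1 library left out (11 and 0 without Hif1a-null replicate 1 and 2). Genes called lower numbered 241, 152 with a pseudocount of 10, 138 without the filter, and 0 to 288 with 1 library left out (8 and 0 without Hif1a-null replicate 1 and 2). Quantile normalization moved the share higher among called genes to 64.0%, against 72.2%.

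S100 members called higher numbered 1, and 0 with a trended variance, quantile normalization, a pseudocount of 0.1 or no filter, and 0 to 3 with 1 library left out; members called lower numbered 0, and 0 to 1 with 1 library left out. S100a9 had an adjusted p of 0.0708, 0.105, 0.0569 and 0.0734 under those 4 settings, and of 0.384, 0.382 and 0.0549 without Hif1a-null replicate 1, Hif1a-null replicate 2 and Hif1a-intact replicate 2 (limma); without the filter, 20081 genes were tested in place of 11909. With 1 library left out, log2 fold changes ran from -0.0059 to 1.82 for S100a4, -0.071 to 0.97 for S100a6, -1.27 to 0.43 for S100a10 and -0.10 to 0.064 for S100a11. S100a11 turned to 0.058 under quantile normalization, 0.016 under median-ratio rescaling, 0.070 without the 50 most abundant genes and 0.24 summed with its copies, an alternative chosen after seeing the data. For S100a9 and S100a11 the cause was not tested.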

Other observations

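Markers of other lineages, which the S100 comparison did not use, differed between the same libraries. Over all genes tested, 5.25% were called higher and 2.02% lower. Summed erythroid markers read 6700 and 7184 TPM in Hif1a-null and 174 and 108 TPM in Hif1a-intact, with 11 of 12 called higher. Summed B-lineage markers read 240 and 236 TPM against 21.8 and 18.2 TPM, with 9 of 10 tested called higher, and megakaryocyte markers 170 and 189 TPM against 38.8 and 39.2 TPM, with 6 of 9. In each list the filter fixed the direction of genes that lay below 1 TPM in both Hif1a-intact libraries: 3 of the erythroid, 7 of the B-lineage and 1 of the megakaryocyte genes, all among those called higher. T and NK cell markers (190 and 218 against 185 and 291 TPM) had 6 of 8 called higher, 4 of which (Cd3g, Gzma, Ncr1 and Tcf7) had their direction fixed in the same way. Mast cell, basophil and eosinophil markers (148 and 143 against 582 and 333 TPM) had 2 called higher and 1 lower of 6, stromal and endothelial markers (73.5 and 82.8 against 62.3 and 54.8 TPM) 2 and 2 of 7, and stem and progenitor markers (375 and 380 against 448 and 433 TPM) 2 and 1 of 9. The direction of Ear2, Cdh5 and Slamf1, 1 gene in each of these last 3 lists, was likewise fixed by the filter; Ear2 and Slamf1 are among the genes called higher. Genes in this paragraph were named after their values were seen. The part of these lineages in the S100 values was not tested.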
